A study of Homo sapiens with 6 samples.

Results

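The 1400 accessible sites described here were listed in LNCaP cells kept without hormone, both with a control hairpin and with a hairpin against the retinoblastoma protein RB, and were not listed in control cells after dihydrotestosterone (DHT, an androgen). They were selected on the peak calls themselves. Peaks of the 3 lists that shared at least 1 bp were merged into 21031 regions, and a region was kept where it held a peak of both hormone-deprived lists and none of the DHT list. The kept regions made up 6.66% of all regions. They took 11.9% of the 11756 regions with a peak in hormone-deprived control cells and 9.64% of the 14527 with a peak in hormone-deprived RB-knockdown cells. Together they spanned 1.65 Mb.

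LNCaP is a long-established human prostate cancer line that responds to androgen. The assay was ATAC-seq, in which a transposase inserts sequencing adapters into open chromatin. The groups were control cells (shCON) after 72 hours in the hormone-deficient condition labelled CDT, control cells after the same 72 hours of CDT with 3 hours of DHT, and RB-knockdown cells (shRB) after 72 hours of CDT. Each group had 2 libraries, pooled by the authors into 1 peak list, and all 6 libraries carried a hairpin and went through CDT. The lines are described as isogenic, and neither their clonal origin nor the number of cultures behind a group is given. RB-knockdown cells were profiled without hormone, so the design holds no DHT arm for them.

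Androgen binds the androgen receptor, a nuclear receptor that then attaches to hormone response elements, mostly in distal enhancers that pioneer factors such as FOXA1 hold open in prostate cells. Receptor activity is known both to open and to reduce accessible sites. RB restrains E2F transcription factors and recruits chromatin regulators to their target promoters. The sites described here lay on the side of the comparison where both hormone-deprived lists held a peak and the DHT list did not.

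A missing peak was a missing call, not a measured loss. The lists hold a position and a capped score from 413 to 1000 for each peak and no read counts, so the signal of the DHT libraries at these sites is not known. Sequencing depth is also unknown. Since the rule used all 3 lists, the scores and widths below are descriptions without a test. Intervals are 95% intervals and cover counting error only, since replicates cannot be separated in these lists. They also treat regions as independent, although neighbouring regions are not. Gene names, promoters and base sequences are not given for these sites because no hg19 genome or annotation was used here.

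Most of these sites carried weak to middling peaks in both hormone-deprived lists. The median score was 611.5 (595 to 623) in shCON CDT and 707.5 (692 to 728) in shRB CDT. Ranked within their own lists, the median peak stood at the 35.1 percentile (33.03 to 36.3) in shCON CDT and at the 43.7 percentile (42.2 to 45.5) in shRB CDT. At the 7149 regions with a peak in all 3 lists, the median peak was at the cap of 1000 in both CDT lists. Among the sites missing after DHT, 127 (9.07%, 7.62 to 10.7) were at the cap in shCON CDT and 247 (17.6%, 15.7 to 19.7) in shRB CDT. Both CDT peaks were at the cap in 57 regions (4.07%, 3.10 to 5.24), against 44.0% (42.9 to 45.2) of the regions common to all 3 lists. Neither was at the cap in 1083 (77.4%, 75.1 to 79.5), against 27.6% (26.6 to 28.6). The other classes held by exactly 2 lists also had low ranks. In shCON CDT, regions missing from shRB CDT had a median percentile of 32.6 (29.1 to 35.3), with 5.66% (3.91 to 7.90) at the cap. In shRB CDT, regions missing from shCON CDT had a median percentile of 41.3 (39.7 to 43.1), with 13.8% (11.9 to 15.8) at the cap. Low rank was thus shared by all 3 classes.

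**Figure D1:**
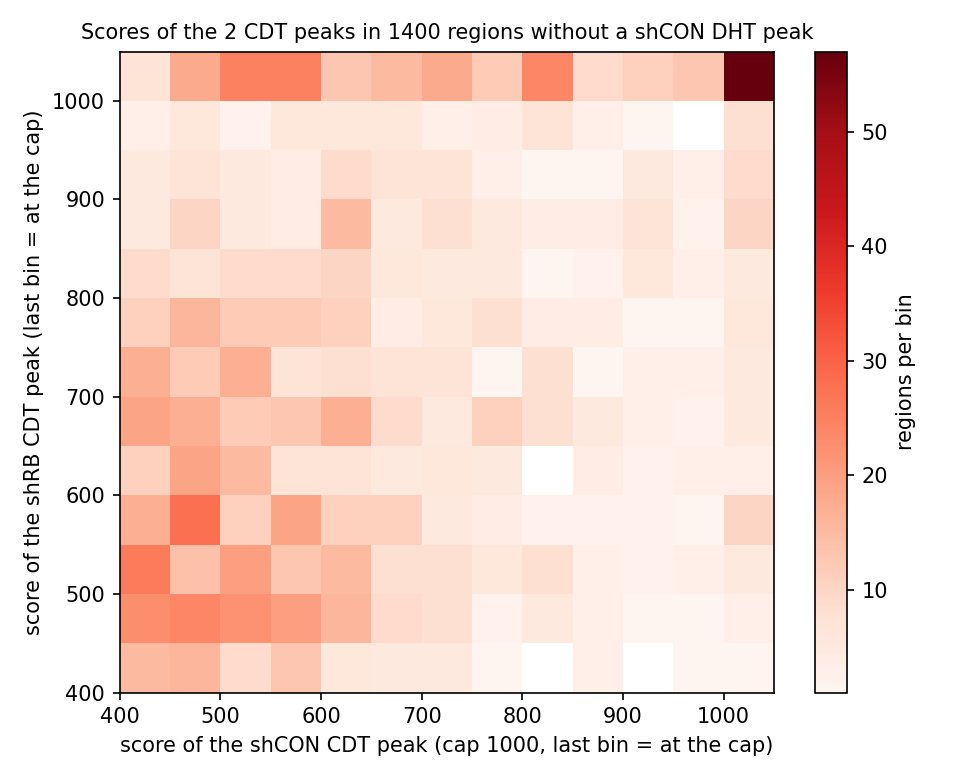
Number of regions in bins of the shCON CDT score (x axis, score units) and the shRB CDT score (y axis, score units) for the 1400 regions in both CDT lists and not in shCON DHT; colour gives regions per bin, and the last row and column hold peaks at the cap of 1000. The regions spread over the whole range of scores, and 57 lie in the corner where both peaks are at the cap.

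The scores of the 2 hormone-deprived lists ranked these sites only loosely alike. Spearman's rho between the score percentiles was 0.31 over the 1400 regions, and 0.18 over the 1083 with neither peak at the cap. For regions common to all 3 lists it was 0.50 over all 7149 and 0.16 over the 1972 with neither CDT peak at the cap. These are descriptions across regions of pooled lists, and regions are not replicates.

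Of all regions with a peak in both CDT lists, 16.4% had no shCON DHT peak (1400 of 8549), the share that the rule itself fixes. That share fell steadily with the strength of the CDT peaks. Where the weaker of the pair stood in the lowest 10% of its list, 52.7% (48.2 to 57.2) of 495 regions had no DHT peak. It was 27.5% (24.5 to 30.8) between the 30 and 40 percentiles and 11.2% (9.35 to 13.2) between 50 and 60. Of the 3205 regions at the cap in both lists, 1.78% (1.35 to 2.30) lacked a DHT peak. By the narrower of the 2 CDT peaks, the share ran from 40.3% (36.5 to 44.2) up to 500 bp to 9.99% (8.98 to 11.1) between 1000 and 1500 bp.

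The other pairs of lists, each with its own missing list, gave the following values. They share lists with the first pair, so they are set side by side and no difference was tested. Regions in shCON DHT and shRB CDT lacked a shCON CDT peak in 14.8% (14.04 to 15.6) of 8390 cases, and in 0.902% (0.590 to 1.32) of the 2882 at the cap in both. Regions in both shCON lists lacked a shRB CDT peak in 7.32% (6.75 to 7.93) of 7714 cases, and in 0.241% (0.0885 to 0.524) of the 2490 at the cap in both. Within the 8 score bands, regions missing from shCON CDT and regions missing from shCON DHT had overlapping intervals throughout. Among regions at the cap in both peaks, 1.78% for the hormone-deprived pair was the highest of the 3 shares, with an interval apart from the other two. The cap was not the same rank in each list, since it held 27.0% of shCON DHT peaks, 32.5% of shCON CDT and 35.1% of shRB CDT peaks. The shRB CDT list was the longest, with 14788 peaks against 12896 in shCON DHT and 12096 in shCON CDT. Peaks of shCON DHT were the narrowest, with a median of 776 bp against 937 bp in shCON CDT and 992 bp in shRB CDT. They covered 10.3 Mb, against 11.7 and 15.0 Mb. What these list differences add to the shares was not tested.

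**Figure D2:**
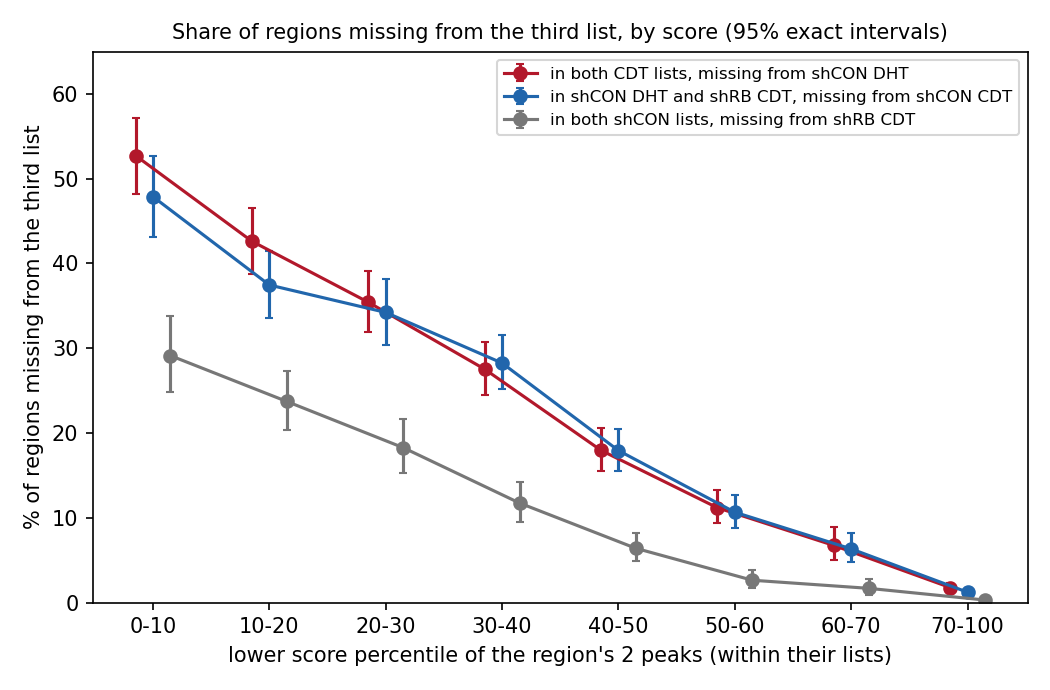
Percentage of regions in a pair of lists that had no peak in the third list (y axis), by the lower within-list score percentile of the region's 2 peaks (x axis), for the 3 pairs of lists; points are shares and bars exact 95% intervals. All 3 curves fall with score, from 52.7% to 1.78% for regions missing from shCON DHT; in that pair the last band holds regions at the cap in both lists.

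The peaks at these sites were narrower than those at common regions. Median width was 875 bp (846 to 899) in shCON CDT and 979 bp (949 to 1000) in shRB CDT, against 1097 bp (1085 to 1109) and 1175 bp (1163 to 1186) at common regions. They were not narrower than in the other classes held by 2 lists, where shCON CDT peaks missing from shRB CDT had a median of 772 bp (742 to 801) and shRB CDT peaks missing from shCON CDT one of 938 bp (913 to 962). Weak peaks tend to be narrow, so widths were also set side by side within 8 bands of the lower score percentile. The sites missing after DHT had the smaller median in 8 of 8 bands in both lists, and the intervals were apart in 5 bands in shCON CDT and in 6 in shRB CDT. At the cap in both lists, shCON CDT peaks had a median width of 915 bp (747 to 1065) at the 57 sites missing after DHT and 1173 bp (1160 to 1190) at 3148 common regions. The shRB CDT peaks there measured 982 bp (840 to 1126) and 1239 bp (1220 to 1255).

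**Figure D3:**
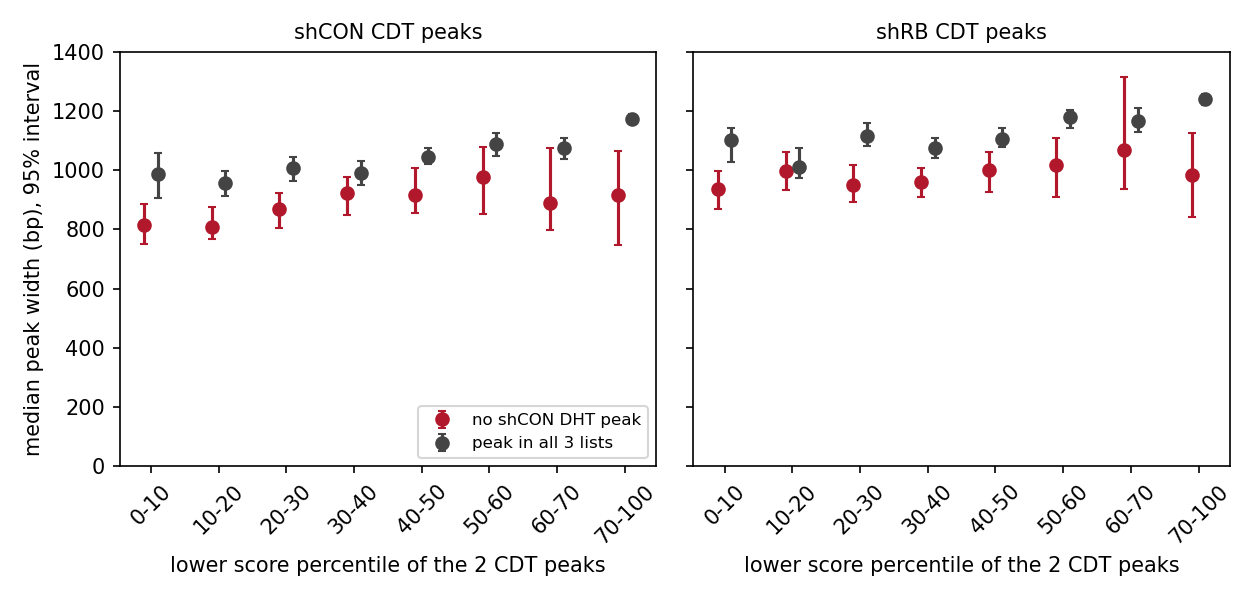
Median peak width in bp (y axis) by the lower score percentile of the 2 CDT peaks (x axis) for shCON CDT peaks (left) and shRB CDT peaks (right), at regions without a shCON DHT peak (red) and regions in all 3 lists (grey); bars are order-statistic 95% intervals. The red median lies below the grey one in 8 of 8 bands in both panels, with overlapping bars in some bands.

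The control and the RB-knockdown peak of a site covered largely the same bases. Their shared bases made up a median of 71.5% (69.7 to 72.9) of their joined bases, and at least 50% in 1134 of the 1400 regions (81.0%, 78.8 to 83.02). Their midpoints lay a median of 108.5 bp (99 to 118) apart. At common regions the same peaks shared a median of 79.4% (78.8 to 79.8), with midpoints 87.5 bp (85.5 to 91) apart. The sites had a smaller median overlap than common regions in 8 of 8 score bands too, with intervals apart in 1 of them. A smaller overlap was not particular to these sites. Regions of both shCON lists shared 63.8% (61.9 to 67.0), and regions of shCON DHT and shRB CDT 65.1% (63.03 to 66.5). Those are other pairs of lists, in which common regions shared 73.6% and 74.5%. The shRB CDT peak was the wider in 60% (57.4 to 62.6) of the sites missing after DHT, and the median ratio of shRB to shCON width was 1.07 (1.05 to 1.09). At common regions these were 57.8% (56.6 to 58.9) and 1.04 (1.03 to 1.05). In 1330 regions each CDT list held exactly 1 peak. In 50 others several shCON CDT peaks faced a single shRB CDT peak, and in 18 the reverse was found.

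The 10 strongest sites by the fixed rule, which takes the weaker of the 2 score percentiles and breaks ties by the narrower peak, were at the cap in both CDT lists. The first was chromosome 4 from 78739717 to 78741853, where the shCON CDT peak was 1997 bp wide and the shRB CDT peak 2115 bp, with the nearest shCON DHT peak 76.4 kb away. On chromosome 10 from 115438790 to 115440795 the peaks were 1971 and 1995 bp wide in the same order and shared 97.7% of their joined bases, 173.0 kb from a DHT peak. On chromosome 1 from 90286178 to 90287926 they were 1679 and 1668 bp wide and 172.3 kb from one. In these 3 regions both lists drew nearly the same boundaries, and no DHT peak was called within 50 kb.

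The 57 sites at the cap in both lists tie on score, so the 10 are the widest of them by the rule, and their width is no finding. Chromosome 15 from 43212083 to 43213829 had peaks of 1747 and 1493 bp at 83.4 kb from a DHT peak. Chromosome 10 from 14879585 to 14881177 had peaks of 1486 and 1521 bp at 38.7 kb. Chromosome 5 from 32173426 to 32174947 had peaks of 1485 and 1470 bp at 18.7 kb. In these 3 the boundaries also largely coincided, with 85.5%, 88.8% and 94.2% of the joined bases shared, in the order given.

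The remaining 4 were nearer in part to DHT peaks. On chromosome 1 from 151511858 to 151513378 the peaks were 1430 and 1447 bp wide, 27.6 kb from a DHT peak. On chromosome 20 from 58513838 to 58516058 the shCON CDT peak was 2155 bp wide and the shRB CDT peak 1407 bp, they shared 60.4% of their joined bases, and a DHT peak lay 4.49 kb away. The chromosome 20 region thus had the least matched pair of peaks of the 10. Chromosome 10 from 98345791 to 98347346 had peaks of 1362 and 1532 bp, 71.9 kb from a DHT peak. Chromosome 1 from 43814118 to 43815545 had peaks of 1298 and 1333 bp, 8.80 kb from one.

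At some sites the score rank differed widely between the hormone-deprived lists. The 5 with the largest difference in score percentile were at the cap in 1 list and near the floor in the other. On chromosome 11 from 235859 to 237348 the score was 422 in shCON CDT and 1000 in shRB CDT. On chromosome 3 from 118753038 to 118754135 it was 435 and 1000, and on chromosome 16 from 31498658 to 31499773 it was 438 and 1000. The opposite order was found on chromosome 15 from 100889592 to 100890896, with 1000 in shCON CDT and 439 in shRB CDT, and on chromosome 19 from 36184633 to 36185141, with 1000 and 450. Without replicate values, none of these differences can be set against the spread between libraries.

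The nearest shCON DHT peak usually lay well away from the site. Its median distance was 43.3 kb (40.3 to 48.4), 75% of the regions had one nearer than 105.6 kb, and 227 (16.2%, 14.3 to 18.3) had one within 10 kb. Only 47 regions (3.36%, 2.48 to 4.44) had one within 1 kb, and 29 (2.07%, 1.39 to 2.96) within 500 bp. The matching values for regions missing from shCON CDT were a median of 47.1 kb (42.9 to 51.5) and 2.01% (1.31 to 2.96) within 1 kb. For regions missing from shRB CDT they were 45.4 kb (37.5 to 53.1) and 3.19% (1.90 to 4.99). The intervals of the 3 classes overlapped in both measures.

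**Figure D4:**
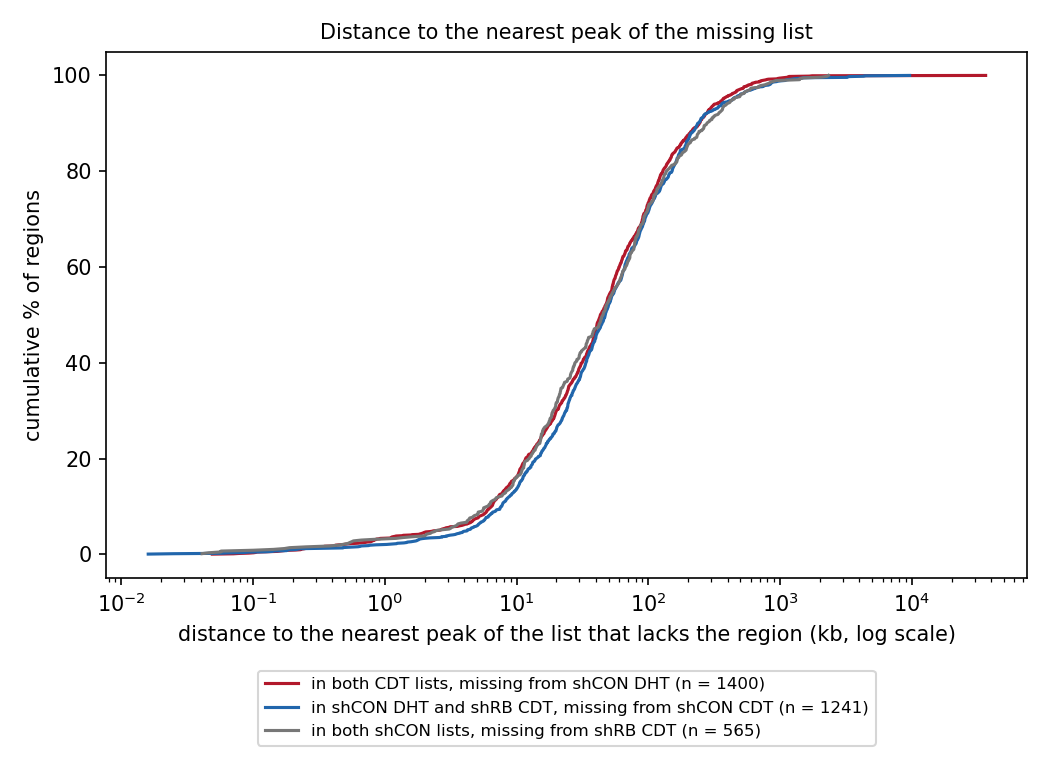
Cumulative percentage of regions (y axis) by distance to the nearest peak of the list that lacks them (x axis, kb, log scale) for the 3 classes of regions held by exactly 2 lists. The curves run close together, with medians of 43.3 kb for regions missing from shCON DHT, 47.1 kb for those missing from shCON CDT and 45.4 kb for those missing from shRB CDT.

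The 47 regions with a DHT peak within 1 kb were short. Their median width was 626 bp (516 to 708) in shCON CDT and 650 bp (494 to 740) in shRB CDT, against 884 bp (853 to 907) and 991 bp (962 to 1007) at the other 1353. The 5 just inside the rule were on chromosome 17 from 45214179 to 45214381, 49 bp from a DHT peak, on chromosome X from 80065295 to 80065774, 71 bp from one, on chromosome 16 from 81129295 to 81129806, at 78 bp, on chromosome 2 from 91775852 to 91776579, at 93 bp, and on chromosome 8 from 12052359 to 12052627, at 101 bp. Their shCON CDT scores were 1000, 1000, 571, 911 and 806, and their shRB CDT scores 509, 1000, 1000, 779 and 994. Just outside the rule, the smallest overlap of a DHT peak with the CDT peaks was 66 bp, on chromosome 18 from 3878879 to 3880370. The CDT scores there were 513 in control and 434 in RB-knockdown cells, and the DHT score was 562. This DHT peak overlapped the shRB CDT peak only and did not touch the shCON CDT peak. The next were chromosome 2 from 91777160 to 91777712 with 118 bp, again with the shRB CDT peak only, chromosome 3 from 196044441 to 196045518 with 163 bp, chromosome 1 from 148929057 to 148929296 with 182 bp, and chromosome Y from 10031887 to 10032086 with 184 bp. On chromosomes 3, 1 and Y the DHT peaks were themselves 163, 198 and 184 bp wide. The few shared bases there reflect short DHT peaks lying mostly or wholly within a CDT peak, not a marginal overlap. Both sides of the rule thus included a short region of the same stretch of chromosome 2, beside the centromere, where repeated sequence makes the placement of short reads uncertain. Its part in these calls was not tested. At a limit of 100 bp few regions stood near the edge: 4 sites lay within 100 bp of a DHT peak, and 1 common region shared at most 100 bp with one. At 500 bp the counts were 29 sites and 444 common regions (6.21%). These are unlike measures, a distance for sites and shared bases for common regions. A short DHT peak shares few bases even when it lies wholly within a CDT peak, so the 444 are not all marginal overlaps.

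At the far end, the 5 sites with the most distant DHT peak were on chromosome Y from 59016776 to 59017379, at 36279 kb, on chromosome 8 from 35092619 to 35094303, at 1750 kb, on chromosome 11 from 98891181 to 98892100, at 1666 kb, on chromosome 1 from 82266141 to 82269211, at 1167 kb, and on chromosome X from 110924225 to 110925119, at 1158 kb. For the chromosome Y site, the nearest common region was also 37288 kb away and the nearest other such site 48994 kb, between midpoints. The chromosome 1 region was 3071 bp long, with an shRB CDT peak of 3006 bp and a shCON CDT peak of 854 bp. In all 5, neither CDT peak was at the cap.

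The surroundings of these sites were also compared. Another such site lay within 50 kb, between midpoints, of 169 regions (12.1%, 10.4 to 13.9). A site missing after DHT lay within 50 kb of 10.2% (9.46 to 10.9) of common regions, of 10.96% (9.27 to 12.8) of regions of shCON DHT and shRB CDT, and of 8.14% (6.02 to 10.7) of regions of both shCON lists. These intervals overlapped with that of the sites themselves. A region common to all 3 lists lay within 50 kb of 547 sites (39.1%, 36.5 to 41.7). Common regions had another common region within that distance in 36.3% (35.2 to 37.4). The share was 37.0% (34.3 to 39.7) for regions of shCON DHT and shRB CDT, and 35.2% (31.3 to 39.3) for regions of both shCON lists. The share with a region of shRB CDT only within 50 kb was 30.2% (27.8 to 32.7), against 23.6% (22.7 to 24.6) for common regions, 26.3% (23.9 to 28.9) for regions of shCON DHT and shRB CDT, and 24.2% (20.8 to 28.0) for regions of both shCON lists. Regions of shCON DHT only lay within 50 kb of 15.5% (13.6 to 17.5), against 13.8% (13.04 to 14.7) for common regions, with overlapping intervals. The nearest region of any class was a median of 24.2 kb (22.1 to 26.4) away, against 32.2 kb (31.3 to 33.4) for common regions. It was 29.7 kb (26.2 to 31.9) for regions of shCON DHT and shRB CDT and 27.4 kb (22.7 to 32.8) for regions of both shCON lists. Both of these intervals overlapped that of the sites.

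A missing DHT call was not clearly more frequent beside another missing call. Among sites missing after DHT with another region of both CDT lists within 50 kb, that neighbour also lacked a DHT peak in 121 of 614 cases (19.7%, 16.6 to 23.1). For common regions it did in 508 of 2921 (17.4%, 16.03 to 18.8). Where the lower score percentile was at most 30, the shares were 20.1% (15.9 to 24.96) and 20.6% (16.9 to 24.7).

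The densest runs within 500 kb held few sites each. On chromosome 17 from 7165551 to 7592072 there were 6, interspersed with 6 common regions and 7 of other classes. Chromosome 9 from 66456304 to 66472625 held 5 within 16.3 kb and no other region between them, with shCON CDT scores from 703 to 1000 and shRB CDT scores from 537 to 1000. A further run of 5 lay on chromosome 14 from 106048978 to 106332748, with 1 common region and 12 of other classes. Another on chromosome 19 from 40971270 to 41305315 had 5 common regions and 2 of other classes. The last, on chromosome 17 from 45608351 to 46019482, had 2 common regions and 5 of other classes. The chromosome 9 run was the most compact of these 5 and the one with no DHT peak inside it. It lies close to the centromere, in sequence with many near-identical copies, and what that adds to the calls was not tested.

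By chromosome, the share of hormone-deprived regions without a DHT peak varied little. It ran from 12.4% (9.00 to 16.5) on chromosome 4 to 20.6% (17.3 to 24.4) on chromosome 3 among the autosomes. Gene-dense chromosomes 17 and 19 had 19.2% (15.7 to 23.04) and 16.5% (13.5 to 19.7), and gene-poor chromosomes 13 and 18 had 14.4% (9.02 to 21.3) and 15.3% (9.98 to 22.1). Chromosome X had 16.2% (11.03 to 22.5). Of 24 chromosomes examined, chromosome 3 was the 1 whose interval lay apart from the pooled 16.4%, with 109 regions of 528, where the shares within 4 score bands of all chromosomes would give 86.7. The interval of chromosome 3 also lay apart with peaks within 500 bp counted as shared, at 20.8% (17.4 to 24.5) against 16.2% pooled. With a 50% reciprocal overlap it lay only just apart, at 22.97% (19.32 to 26.94) against 19.25%. The setting of autosomes only leaves the regions of chromosome 3 unchanged, so it adds nothing on this point. The share of chromosome 3 was not recomputed without the sites within 1 kb of a DHT peak. In the settings that cut the lists by score, the interval held the pooled share. With all lists cut to the length of the shortest, chromosome 3 had 18.1% (14.8 to 21.8) against 15.5% over all chromosomes, and in the top 50% of each list 14.8% (11.04 to 19.2) against 17.0%. With the CDT lists cut to their top 50% by score, a setting chosen after seeing the data, it was 3.54% against 4.50% over all chromosomes.

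**Figure D5:**
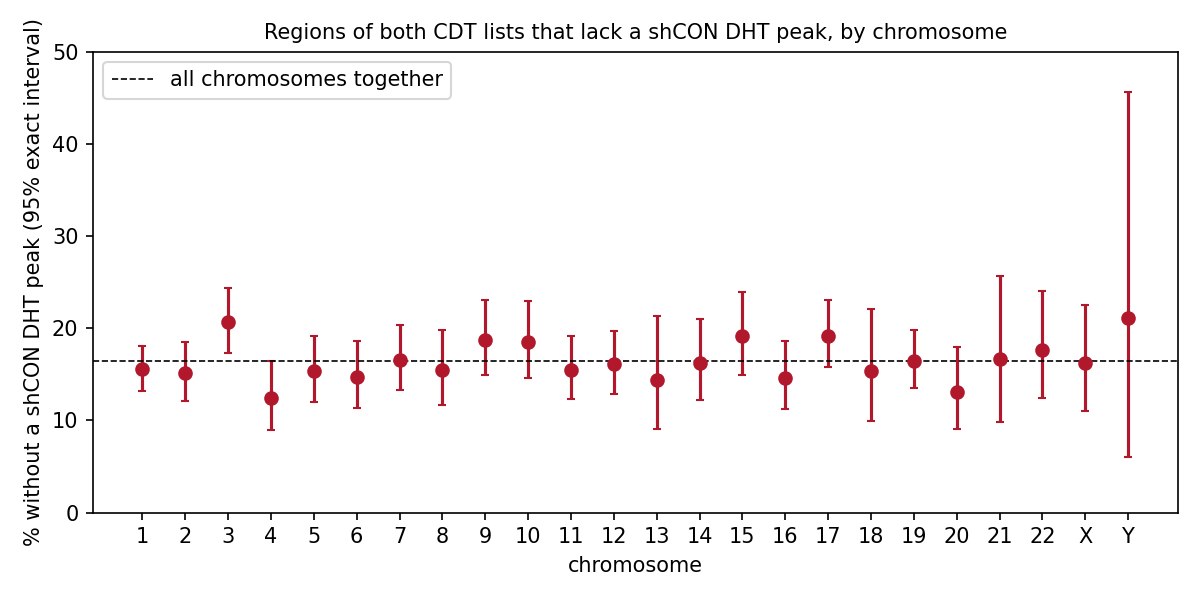
Percentage of regions in both CDT lists that had no shCON DHT peak (y axis) for each chromosome (x axis), with exact 95% intervals; the dashed line is the share over all chromosomes, 16.4%. Chromosome 3, at 20.6%, is the 1 whose interval clears the line, and the interval of chromosome Y is wide because it rests on 19 regions. The intervals are not adjusted for the number of chromosomes.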

How the data were processed

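The peak lists were made by the authors, 1 per group of 2 libraries, on genome build hg19 per the submitters' processing notes. Per the labels, the list names give an irreproducible discovery rate (IDR) limit of 0.1 and mark the peaks as filtered, merged and scored. Peaks were used with aligner, peak caller and transposase shift not given in the sources used here. The deposited score is a whole number of unstated scale, capped at 1000. Lists were compared mainly by its rank within each (mid-rank percentiles, 83.8 and 82.4 at the cap of shCON CDT and shRB CDT). Median scores, scores of named regions and shares at the cap use the score as deposited, whose scale may differ between lists.

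Starts are counted from 1. No read counts were used, so depth is unknown. Where a region held several peaks of a list, the highest-scoring one, then the widest, was used. Distances to peaks are the bases between edges, and distances between regions are between midpoints. Shares carry exact (Clopper-Pearson) and medians order-statistic 95% intervals. Python 3.11.15, numpy 2.4.6, pandas 2.3.3, scipy 1.17.1 and matplotlib 3.10.9 were used, and the code was tested on simulated peaks. The regions, measures and naming rules were chosen with earlier results of these data known. The named regions were the 10 with the highest lower percentile, and 5 each by nearness to a DHT peak, distance from one, least DHT overlap among common regions, density of runs and percentile difference. Planned promoter, gene list and motif results were not run, because they need a genome and annotation of build hg19.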

Additional observations from a re-analysis of the deposited data

How the results depend on the processing

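None of the 10 measures moved beyond its interval, or the count by over 1.5 times, on autosomes only. Without the 47 regions within 1 kb of a DHT peak, a setting chosen after seeing the data, the same held for 9 of 9, since the share within 1 kb is then 0 by construction. With peaks within 500 bp counted as shared, 1361 of the 1400 regions were kept, and the share within 1 kb of a DHT peak was 0.868%. With a 50% reciprocal overlap there were 1560 regions, including 1195 of the 1400. The share within 1 kb of a DHT peak was then 26.0%, since DHT peaks of small overlap no longer counted. The median percentiles were 39.7 (shCON CDT) and 48.5 (shRB CDT), the share at the cap in both 8.78%, the median widths 990 and 1050.5 bp, and the median base overlap 77.1%. With lists cut to 12096 peaks, 1187 of the 1400 were kept, the median percentiles were 37.1 and 37.5, and 5.65% were at the cap in both. Here and in the top 50% settings below, percentiles were ranked anew within the cut lists. They therefore cannot be set against those of the full lists, and 64.9 below is the rank of the cap itself. In the top 50% of each list there were 843 regions, of which 223 were among the 1400, because a DHT peak below its own score limit no longer counted. There the values were 1.30% within 1 kb, 64.9 for the shRB CDT percentile, 33.5% at the cap in both, widths of 1018 and 1105 bp, a base overlap of 77.04%, 6.52% within 50 kb of another such region and 25.5% within 50 kb of a common one. With only the CDT lists cut that way, a setting chosen after seeing the data, 223 regions were left. Their values in the same order were percentiles of 28.9 and 64.9, 25.6% at the cap in both, widths of 959 and 1017 bp, a base overlap of 76.4%, and 2.69% and 34.5% within 50 kb. No paired analysis was possible because the 2 libraries of a group were joined in its list, so leaving out a library could not be tried either. The settings planned for promoter windows and motif windows were not run.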

Other observations

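The shCON DHT peaks nearest to the 1400 sites were much like DHT peaks in general. They belonged to regions common to all 3 lists in 60% (57.4 to 62.6) of cases and to regions of shCON DHT only in 25% (22.8 to 27.4), against 59.6% and 25.6% of all 12896 DHT peaks. For the 47 sites with a DHT peak within 1 kb, the peak was in a common region in 25 cases and in a region of shCON DHT only in 15. These measures were chosen after seeing the data.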
